A study of Mus musculus with 6 samples.

Results

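Laminin chains and integrin subunits, the proteins of the basement membrane and the cell surface receptors that hold cells to it, were followed in tooth germs of mouse embryos. The genes were chosen by symbol, as laminin alpha, beta or gamma chains or integrin alpha or beta subunits, which gave 35 of the 23420 genes in the deposited tables. They were 10 laminin chains and 25 integrin subunits, of which 18 were alpha and 7 beta subunits. The tooth germs were taken at E15.5 from C57BL/6 mice of 2 genotypes, Smad7-/- (3 libraries) and wild type (3 libraries). Smad7 encodes an inhibitor of SMAD signalling downstream of the receptors for TGF-beta and BMP. The labels describe neither the Smad7 allele nor the cells in which it is lost. Total RNA was made into libraries with a kit that does not mark strand, so reads of overlapping genes on opposite strands cannot be told apart.

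Laminins are trimers of an alpha, a beta and a gamma chain, and integrins are dimers of an alpha and a beta subunit that bind laminins, collagens, or ligands carrying the RGD motif such as fibronectin. In the tooth germ, a basement membrane lies between the dental epithelium and the dental mesenchyme, and odontoblasts and ameloblasts later differentiate on its opposite faces. Laminins that hold the Lama3 and Lamb3 chains anchor epithelia through the integrin dimer of Itga6 and Itgb4, while alphaV integrins with beta6 or beta8 release active TGF-beta from its latent complex.

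Library totals ran between 37591888 and 56575476 counts, and levels are given as CPM, the count of a gene scaled to the library total after TMM normalization. Smad7 itself had 80, 62 and 41 counts in the Smad7-/- libraries, against 1097, 934 and 859 counts in wild type, a log2 change of -3.80 ± 0.33 (SE; edgeR quasi-likelihood test, adjusted p = 0.00749). The first principal component, with 33.5% of the variance, did not follow genotype: Smad7-/- libraries 1 and 2 and wild-type library 1 lay on its negative side, and Smad7-/- library 3 and wild-type libraries 2 and 3 on its positive side. The labels do not say whether the libraries came from separate embryos or litters, so the p-values measure the spread between these samples, which may be technical. In whole tooth germs, fewer cells of a type and less RNA per cell cannot be told apart. Of the markers listed for the tissue, all 8 of dental epithelium and all 8 of dental mesenchyme had counts in every library.

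No member passed an adjusted p of 0.05 in the edgeR test over all genes, in which 4 of 15284 genes (0.0262%) passed, Smad7 among them. Judged by group ranges alone, Lamc3, Itga9, Itga8 and Itga5 were higher in all 3 Smad7-/- libraries than in any wild-type library, and Itgb6 and Itgb5 were lower in all 3. Lama2 and Itga2b had overlapping ranges but larger changes than Itga5 and Itgb5. By DESeq2, Lamc3 alone of the members passed (log2 change 0.68 ± 0.18, SE; adjusted p = 0.0484), against 0.351% of the 16816 genes that tool tested. Of the members, 34 passed the filter on low counts, 19 with a higher and 15 with a lower mean in Smad7-/-. Their median log2 change was 0.03, against 0 for all tested genes, and their median size of change without regard to direction was 0.16, against 0.1. Group ranges did not overlap for 4 members in the higher direction, where 4.97% of all tested genes did the same, and for 2 in the lower, where 3.91% did. That is 17.6% of the tested members, against 8.88% of all tested genes in both directions. An unadjusted edgeR p under 0.05 was found for 7 members (20.6% of 34), 5 higher and 2 lower, against 5.14% of all tested genes. No test was made of the list as a whole, since its genes are not independent of each other. The list was also chosen with earlier results of these data known, so these shares are descriptions.

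**Figure D1:**
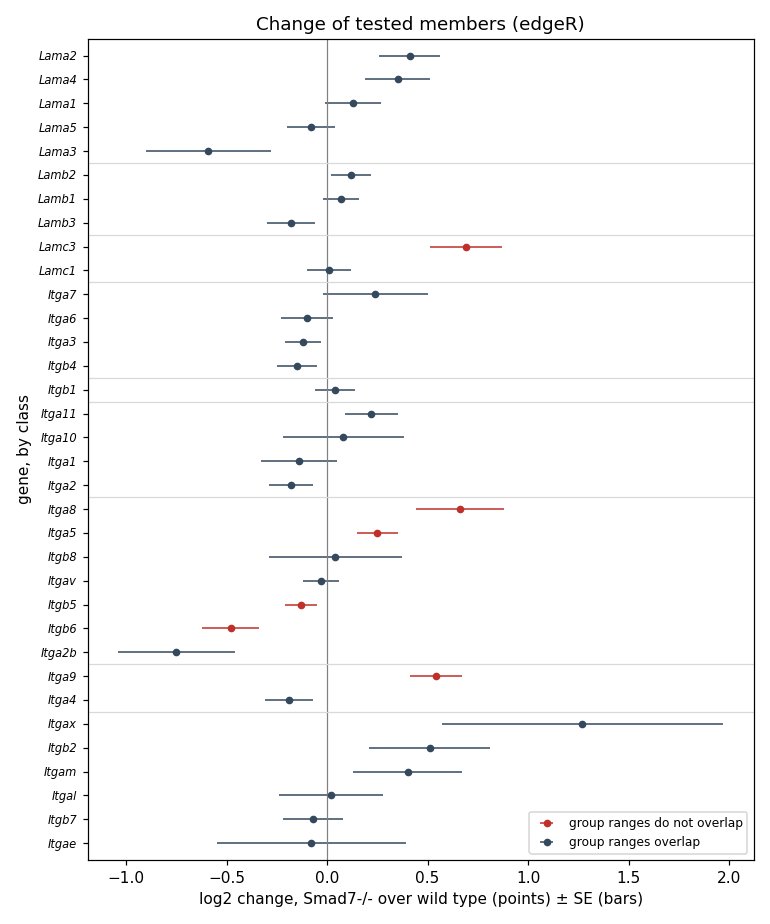
Log2 change of the 34 tested laminin and integrin genes in Smad7-/- over wild-type tooth germs, grouped by role, with bars for the SE of the edgeR fit (n = 3 libraries each); red marks members whose group ranges do not overlap. Lamc3 (0.69), Itga8 (0.66) and Itga9 (0.54) lie to the right of 0 and Itgb6 (-0.48) to the left, and Itgb1 (0.04) lies near 0.

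To show the promoter sequence of members whose ranges did not overlap beside that of an abundant member whose ranges did, the 250 bases before the RefSeq start of 4 genes (GRCm38.p6) are printed in the direction of transcription. Capitals mark CAGAC or its complement GTCTG, the motif of SMAD3 and SMAD4, and GGCGCC, a GC-rich SMAD motif. TGANTCA, the AP-1 motif, was also searched and would be in capitals too. Itga8 (chr2:12301945-12302194, minus strand) and Itga5 (chr15:103366792-103367041, minus strand) had higher levels in Smad7-/-, Itgb6 (chr2:60722604-60722853, minus strand) had lower ones, and Itgb1 (chr8:128685404-128685653, plus strand) is the comparison.
Itga8: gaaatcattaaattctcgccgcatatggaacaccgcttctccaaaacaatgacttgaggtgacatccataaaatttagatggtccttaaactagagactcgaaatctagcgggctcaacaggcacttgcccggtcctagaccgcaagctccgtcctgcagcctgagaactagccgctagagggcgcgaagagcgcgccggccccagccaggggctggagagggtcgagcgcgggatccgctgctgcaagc
Itga5: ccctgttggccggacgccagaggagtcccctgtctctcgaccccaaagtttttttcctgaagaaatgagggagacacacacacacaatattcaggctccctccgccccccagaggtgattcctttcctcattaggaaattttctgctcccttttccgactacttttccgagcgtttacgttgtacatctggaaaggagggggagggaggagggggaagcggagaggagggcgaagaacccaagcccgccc
Itgb6: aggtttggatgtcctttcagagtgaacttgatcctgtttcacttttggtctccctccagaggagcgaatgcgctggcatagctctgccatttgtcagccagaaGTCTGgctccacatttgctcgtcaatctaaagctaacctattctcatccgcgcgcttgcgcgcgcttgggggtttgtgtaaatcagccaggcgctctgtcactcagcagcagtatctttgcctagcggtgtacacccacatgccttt
Itgb1: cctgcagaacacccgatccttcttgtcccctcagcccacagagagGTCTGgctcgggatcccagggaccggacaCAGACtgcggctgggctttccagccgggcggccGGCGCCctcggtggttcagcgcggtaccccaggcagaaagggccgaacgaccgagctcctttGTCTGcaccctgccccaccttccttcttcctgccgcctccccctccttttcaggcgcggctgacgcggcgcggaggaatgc
The Itga8 and Itga5 windows held none of these letters, the one printed for Itgb6 held 1 GTCTG, and that of Itgb1 held 3 matches to CAGAC or GTCTG and 1 to GGCGCC. The window of Itgb5, a second one of Itgb6 and the only one of Itga9 held none either. The last 2 lay at starts inside the gene, 48950 (Itgb6) and 105002 (Itga9) bases from the GENCODE start. The sequence before the GENCODE start of Itga9 was therefore not searched, and Lamc3 had no matched window. Searched on both strands, CAGAC lay in 42.2% of 32817 RefSeq mouse promoter windows of the same length, GGCGCC in 9.59% and TGANTCA in 6.75%. RefSeq windows were matched for 23 of the 35 members. Of their 26 windows, 15 held CAGAC, 3 held GGCGCC and 1 held TGANTCA. No member window held more matches to CAGAC or GTCTG than that of Itgb1, so it does not stand for members with overlapping ranges. Other such members went both ways. The windows of Itga10, Itga11, Itga2b, Itgav and Itgam held none of the motifs, and that of Itga2 held 3 matches to CAGAC or GTCTG. Of the 4 printed windows, those of Itgb6 and Itgb1 hold motif letters, and a match is a description of the sequence, not a binding site.

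Among the laminins described here, Lamc3 had the largest change. Lamc3 encodes gamma3, a chain found in a few tissues only, while gamma1 is shared by most laminins. Lamc3 (chr2:31887291-31946539, plus strand, mm10) had 85.4, 69 and 82.2 CPM in Smad7-/- libraries 1 to 3, against 57.7, 34.4 and 55 CPM in wild-type libraries 1 to 3. The lowest Smad7-/- library lay above the highest wild-type library, and wild-type library 2 was the lowest of all. Means were 78.8 ± 8.68 CPM in Smad7-/- and 49 ± 12.8 CPM in wild type (SD, n = 3 each), a log2 change of 0.69 ± 0.18 (SE; 95% interval 0.27 to 1.1; edgeR adjusted p = 0.659). Leaving out 1 library at a time gave 0.48 to 0.82, and the change was 0.42 among the libraries on the negative side of the first principal component and 0.88 among those on the positive side, values with 1 library against 2 and no test. Between 1699 and 4734 reads per library stood behind these values, and 5.6% of the gene's exon bases overlap Gm13441 on the other strand.

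Lamc1 did not share this pattern. Lamc1, which encodes gamma1, had 665, 621 and 651 CPM in Smad7-/- libraries, against 737, 575 and 616 CPM in wild type, and its log2 change of 0.01 had a 95% interval of -0.24 to 0.25.

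Of the chains of epithelial anchoring laminins, Lama3 varied most between wild-type libraries. Lama3, the alpha3 chain, had 101, 111 and 92.1 CPM in Smad7-/- libraries, against 86.6, 145 and 226 CPM in wild type (log2 change -0.59 ± 0.31, 95% interval -1.32 to 0.14). Its ranges overlapped, and the change shrank to -0.20 when wild-type library 3 was left out, against -0.88 on omitting wild-type library 1. Wild-type library 1 lay on the negative side of the first principal component with Smad7-/- libraries 1 and 2. Within that side Lama3 differed by 0.29 on the log2 scale, and within the positive side by -1.01, so it did not keep its direction in both. Lamb3, the beta3 chain, had 548, 522 and 412 CPM in Smad7-/- libraries, against 523, 572 and 583 CPM in wild type (log2 change -0.18 ± 0.12). The Lamb3 change was -0.07 without Smad7-/- library 3, 0.03 on the negative side of the first component and -0.49 on the positive side, so its direction also differed between the sides.

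**Figure D2:**
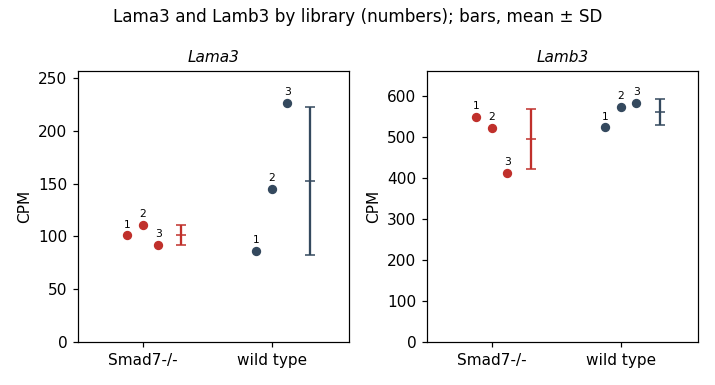
Levels in CPM of the chains Lama3 and Lamb3 in each library, Smad7-/- left of wild type, with bars for the mean and SD (n = 3 each). Wild-type library 3 is the highest for Lama3 (226 CPM), and wild-type library 1 (86.6 CPM) lies below the Smad7-/- libraries.

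Of the other alpha chains, those made mainly by mesenchyme, muscle and vessels had higher means in Smad7-/-. Lama2, which encodes alpha2, had 113, 87.6 and 121 CPM in Smad7-/- libraries, against 90, 65.7 and 86.3 CPM in wild type (log2 change 0.41 ± 0.15, edgeR unadjusted p = 0.0211, adjusted p = 0.827). Its ranges overlapped, because Smad7-/- library 2 lay below wild-type library 1. Lama4, the alpha4 chain of vessels and muscle, had 106, 116 and 138 CPM in Smad7-/- libraries, against 94.4, 73.7 and 114 CPM in wild type (log2 change 0.35 ± 0.16). Lama5, the broadly used alpha5 chain of embryonic epithelia, had 439, 318 and 389.9 CPM in Smad7-/- libraries, against 392, 441 and 381 CPM in wild type (log2 change -0.08 ± 0.12). For Lama5, Smad7-/- library 2 lay below all wild-type libraries, and Smad7-/- libraries 1 and 3 lay within the wild-type range. Lama1, the alpha1 chain of early basement membranes, differed by 0.13 ± 0.14 in log2, within its error.

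The beta chains Lamb1 and Lamb2, which pair with gamma1 in most laminins, differed by little more than their errors. Lamb1 had 464, 441 and 467 CPM in Smad7-/- libraries, against 466, 399.7 and 445 CPM in wild type (log2 change 0.07 ± 0.09). Lamb2 differed by 0.12 ± 0.10 in log2, with overlapping ranges.

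Divided by exon length, levels can be set beside each other between chains. In CPM per kilobase, averaged over the 6 libraries, Lamb3 was the highest laminin described here at 103, followed by Lamc1 at 84.5 and Lamb1 at 76.5, and all were above every alpha chain, of which Lama5 was the highest at 34.5. Summed over chains, alpha chains reached 79.3 ± 6.91 CPM per kilobase in Smad7-/- and 78.6 ± 8.44 in wild type, and beta chains 193 ± 12.7 in Smad7-/- and 201 ± 6.81 in wild type (SD, n = 3 each). Both totals differed by less than the larger of the 2 SDs.

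**Figure D3:**
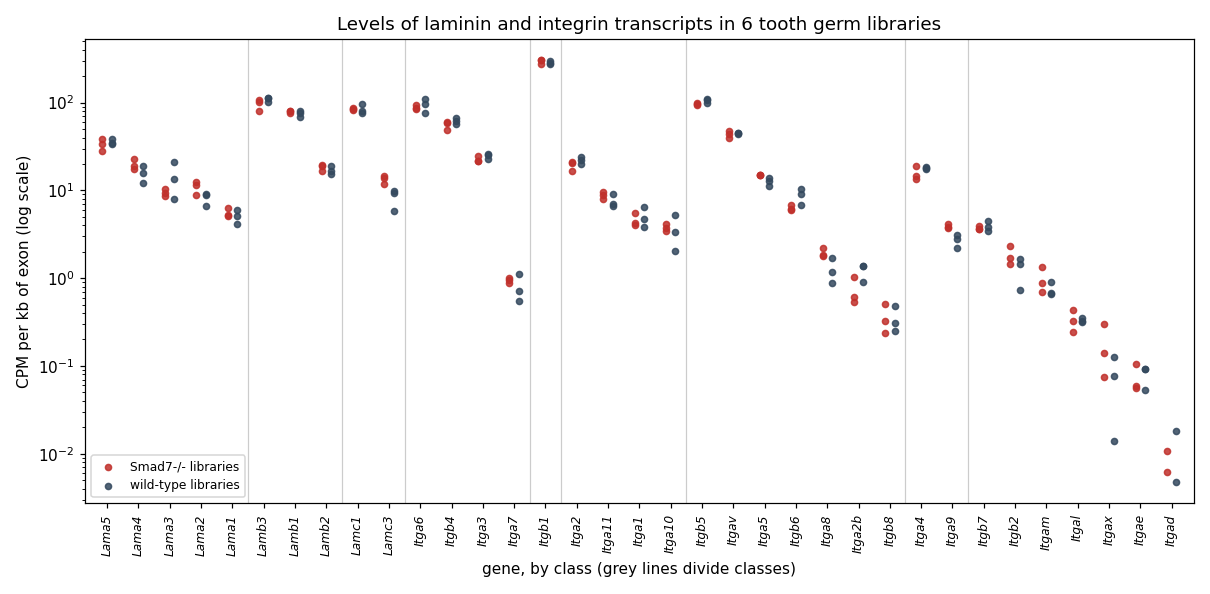
Level per exon length (CPM per kilobase, log axis) of every member in each library, Smad7-/- and wild type side by side, ordered by role. Itgb1 averages 291 and Itgad 0.00663 over the 6 libraries, and libraries of Itgad at 0 cannot be drawn on a log axis.

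Within the alpha chains, the pooled share of Lama2 and Lama4 separated the genotypes by a narrow gap. Together they took 35.3, 39.3 and 41.8% of alpha-chain level per kilobase in Smad7-/- libraries, against 34.3, 25.1 and 31.4% in wild type, a difference of 8.52 percentage points. The libraries of the genotypes did not overlap, which gives the smallest p that 3 against 3 libraries allow (exact 2-sided permutation test, p = 0.1; 0.457 adjusted over 16 shares). This design cannot reach 0.05 in that test. In this share Smad7-/- library 1 lay just above wild-type library 1, and the CPM ranges of Lama2 and of Lama4 each overlapped. Lama3 took 12 ± 2.23% of alpha-chain level in Smad7-/- and 17.7 ± 6.34% in wild type (exact permutation p = 0.3, adjusted 0.48), with overlapping libraries. Lama5 took 42.2 ± 4.16% of alpha-chain level in Smad7-/- and 45.6 ± 6.96% in wild type (exact permutation p = 0.6), a difference that ran between -7.31 points without wild-type library 3 and -0.557 points without wild-type library 2. Lamb3 took 49.7 ± 4.41% of beta-chain level in Smad7-/- and 54.3 ± 2.55% in wild type (exact permutation p = 0.3), a difference of -4.59 points that was -2.05 without Smad7-/- library 3. Both shares overlapped between genotypes.

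**Figure D4:**
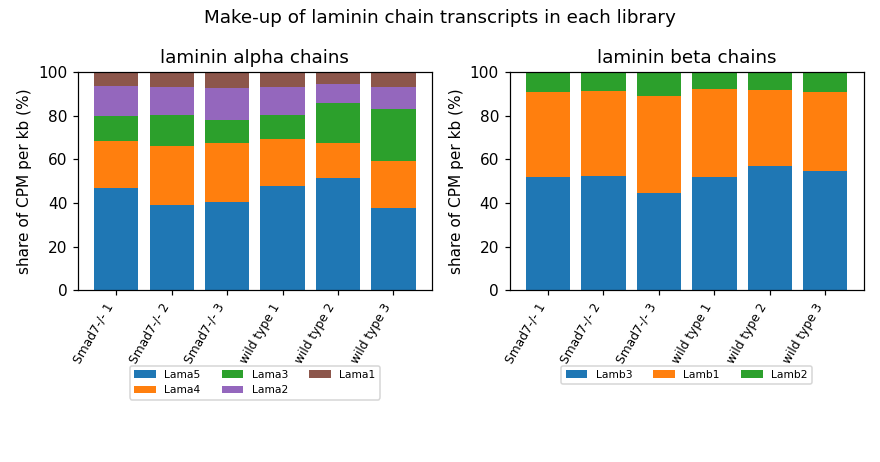
Share (percent) of each chain in the summed level per kilobase of the alpha and of the beta laminin chains, in each library with Smad7-/- left of wild type. Lama2 and Lama4 together hold 35.3 to 41.8% of the alpha chains in Smad7-/- and 25.1 to 34.3% in wild type.

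Neither the laminin-binding integrins nor the shared beta1 subunit held a member whose CPM ranges separated. Itgb1, the partner of most alpha subunits, was the highest member per kilobase (291 CPM per kilobase over the 6 libraries) and had 1163, 1167 and 1046 CPM in Smad7-/- libraries, against 1136, 1053 and 1089 CPM in wild type. Its log2 change of 0.04 ± 0.10 had a 95% interval of -0.18 to 0.26. Itgb1 made up 64.9, 64.4 and 63.4% of the summed level per kilobase of the 7 beta subunits in Smad7-/- libraries, against 63.3, 59 and 61.3% in wild type, again without overlap (exact permutation p = 0.1, adjusted 0.457). Its smallest gap between the groups was small beside the spread of the wild-type libraries.

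Itga6 and Itgb4 form the hemidesmosome receptor for laminins with the Lama3 and Lamb3 chains. Itga6 had 408, 367 and 379 CPM in Smad7-/- libraries, against 476, 422 and 335 CPM in wild type (log2 change -0.10 ± 0.13). Itgb4 had 381, 373 and 311 CPM in Smad7-/- libraries, against 389, 421 and 367 CPM in wild type (log2 change -0.15 ± 0.10). In both genes the libraries of the genotypes overlapped. Itga3, the epithelial alpha3 subunit, differed by -0.12 ± 0.09 and Itga7, the muscle alpha7 subunit, by 0.24 ± 0.26 in log2. Laminin-binding subunits held 48.4% of integrin alpha-subunit level per kilobase in Smad7-/- and 49.7% in wild type.

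Collagen-binding subunits gave no member whose ranges separated. Itga2, the epithelial and platelet collagen receptor, had 151, 118 and 146 CPM in Smad7-/- libraries, against 169, 159 and 143 CPM in wild type (log2 change -0.18 ± 0.11). Itga11, a fibroblast and mesenchyme collagen receptor, had 40.1, 44.1 and 48 CPM in Smad7-/- libraries, against 33.3, 34.4 and 45.7 CPM in wild type (log2 change 0.22 ± 0.13). Itga1 differed by -0.14 ± 0.19 and Itga10 by 0.08 ± 0.30 in log2. The Itga10 level is uncertain, because 34.5% of its exon bases are shared with Gm42957.

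Of 7 RGD-binding subunits, 4 had group ranges that did not overlap, against 8.88% of all tested genes. Itga8, the mesenchymal receptor for nephronectin, had 12.9, 10.5 and 10.7 CPM in Smad7-/- libraries, against 6.75, 5.16 and 9.74 CPM in wild type. Smad7-/- libraries were all above wild-type library 3, the highest of its group, by a narrow gap. Means were 11.4 ± 1.33 CPM in Smad7-/- and 7.21 ± 2.33 CPM in wild type (SD, n = 3 each), a log2 change of 0.66 ± 0.22 (SE; 95% interval 0.16 to 1.15; edgeR adjusted p = 0.818). It was 0.46 to 0.93 on leaving out 1 library, and 0.80 on the negative and 0.52 on the positive side of the first component. Of its exon bases, 6.4% overlap E030013I19Rik on the other strand. Itga5, the fibronectin receptor subunit, had 66, 65.6 and 66.1 CPM in Smad7-/- libraries, against 56.1, 49.6 and 60.8 CPM in wild type. Its Smad7-/- libraries were nearly equal, and the log2 change was 0.25 ± 0.10 (95% interval 0.03 to 0.46; edgeR adjusted p = 0.873).

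Itgb6 and Itgb5, beta subunits of the same group, had lower values in Smad7-/-. Itgb6, the epithelial partner of alphaV in releasing active TGF-beta, had 37.1, 36.2 and 41.2 CPM in Smad7-/- libraries, against 41.5, 54.9 and 63.4 CPM in wild type. The highest Smad7-/- library lay just below the lowest wild-type library. Means were 38.2 ± 2.68 CPM in Smad7-/- and 53.3 ± 11.1 CPM in wild type (SD, n = 3 each), a log2 change of -0.48 ± 0.14 (SE; 95% interval -0.8 to -0.16; edgeR adjusted p = 0.706). It ran between -0.64 and -0.34 on leaving out 1 library, and was -0.18 on the negative and -0.52 on the positive side of the first component. Itgb5, another partner of alphaV, had 317, 337 and 327 CPM in Smad7-/- libraries, against 339.7, 375 and 360.1 CPM in wild type. The gap between the groups was smaller than the range within either, and the log2 change was -0.13 ± 0.08 (95% interval -0.32 to 0.06; edgeR adjusted p = 0.999). Itgav, the alphaV subunit both pair with, had 309, 281 and 337 CPM in Smad7-/- libraries, against 322, 315 and 313 CPM in wild type (log2 change -0.03 ± 0.09). Itgb8, the other partner that releases TGF-beta, differed by 0.04 ± 0.33 in log2 on 86 to 244 reads per library.

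Itga2b, the alphaIIb subunit of platelets and megakaryocytes, was low, at 1.84, 2.12 and 3.49 CPM in Smad7-/- libraries and 3.1, 4.71 and 4.75 CPM in wild type. Smad7-/- library 3 lay above wild-type library 1, so the ranges overlapped (log2 change -0.75 ± 0.29, edgeR unadjusted p = 0.027, adjusted p = 0.873). Platelet markers summed to 7.87 to 10.4 CPM in Smad7-/- libraries and 8.21 to 16.3 CPM in wild type, with 4 of 5 tested markers lower in Smad7-/- and Gp6 at 0 in at least 1 library. Of these, Ppbp had a log2 change of -2.63 ± 0.73 (DESeq2 adjusted p = 0.00753, edgeR adjusted p = 0.696), with overlapping ranges. The other tested markers also overlapped. Their log2 changes were -0.11 ± 0.22 for Pf4, -0.07 ± 0.24 for Gp1bb, 0.05 ± 0.31 for Gp1ba and -0.87 ± 0.66 for Gp9. The part of platelet cells in the Itga2b value was not tested.

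**Figure D5:**
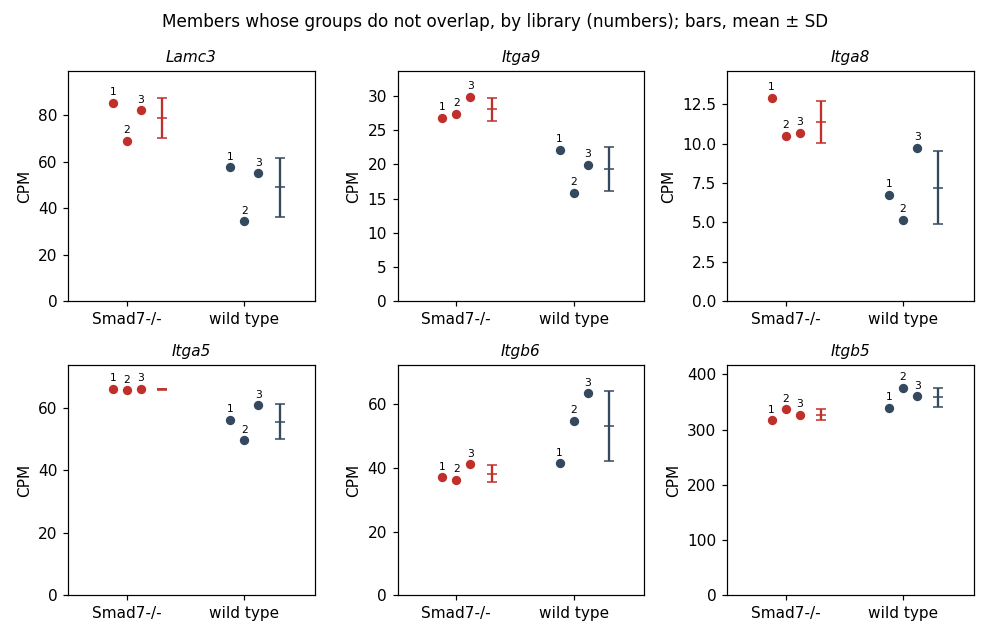
Levels in CPM of the 6 members whose group ranges did not overlap, each library as a point, Smad7-/- left of wild type, with bars for the mean and SD (n = 3 each). Lamc3, Itga9, Itga8 and Itga5 are higher and Itgb6 and Itgb5 lower in all 3 Smad7-/- libraries.

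Of the alpha4 and alpha9 pair, which bind VCAM1, fibronectin splice forms and tenascin, only alpha9 separated the genotypes in these libraries. Itga9 (chr9:118606690-118901003, plus strand, mm10) had 26.8, 27.4 and 29.9 CPM in Smad7-/- libraries, against 22.1, 15.8 and 19.9 CPM in wild type. Means were 28.1 ± 1.63 CPM in Smad7-/- and 19.3 ± 3.2 CPM in wild type (SD, n = 3 each). The log2 change of 0.54 ± 0.13 (SE; 95% interval 0.24 to 0.84) had the smallest edgeR p of any member (unadjusted p = 0.00246, adjusted p = 0.608). By DESeq2 its adjusted p was 0.0724, above the 0.0484 of Lamc3. The Itga9 change was 0.42 to 0.65 on leaving out 1 library, and 0.29 on the negative and 0.74 on the positive side of the first component. Itga4 had 143, 131 and 187 CPM in Smad7-/- libraries, against 171, 179 and 176 CPM in wild type, with Smad7-/- library 3 above and the other Smad7-/- libraries below all of wild type (log2 change -0.19 ± 0.12).

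Leukocyte integrins were low, each under 5 CPM per kilobase in every library. Itgb7, the partner of alpha4 and alphaE in lymphocytes, had 10.4, 9.68 and 9.72 CPM in Smad7-/- libraries, against 9.21, 11.9 and 10.2 CPM in wild type (log2 change -0.07 ± 0.15). Itgb2, the beta subunit shared by leukocyte adhesion receptors, had 4.31, 5.04 and 6.82 CPM in Smad7-/- libraries, against 2.18, 4.33 and 4.88 CPM in wild type (log2 change 0.51 ± 0.30), with overlapping ranges. Its possible partners Itgam, Itgal and Itgax differed by 0.40 ± 0.27, 0.02 ± 0.26 and 1.27 ± 0.70 in log2, the last on 3 to 75 reads per library, and Itgae, a partner of Itgb7, by -0.08 ± 0.47. Without Smad7-/- library 3 the change was 0.09 for Itgam and 0.57 for Itgax, Itgax was at 1.93 without wild-type library 3, and Itgb2 was at 0.23 without wild-type library 1. Itgad had 1, 2 and 0 reads in Smad7-/- libraries and 4, 1 and 0 reads in wild type and was not tested. Itgam shares 70% of its exon bases with Gm49368, so its level is uncertain. Macrophage and leukocyte markers summed to 177 to 196 CPM in Smad7-/- libraries and 106 to 144 CPM in wild type, and 8 of 8 were higher in Smad7-/-. None passed the edgeR test, and Csf1r, Cd68 and Laptm5 passed DESeq2 (adjusted p = 0.00341, 0.03 and 0.0395). Ptprc, counted among the 8, differed by only 0.02 ± 0.25 in log2. It averaged 5.71 CPM in Smad7-/- and 5.65 CPM in wild type, with overlapping ranges. The part of these markers' cells in the values of Itgb2 and its partners was not tested.

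Markers of the dental mesenchyme had higher means in Smad7-/-, and most markers of the epithelium had lower means. Mesenchyme markers summed to 289 to 307 CPM in Smad7-/- libraries and 182 to 238 CPM in wild type, 8 of 8 were higher in Smad7-/-, and 7 had ranges that did not overlap, against 4.97% of all tested genes in that direction. None passed the edgeR test, and Prrx1 passed DESeq2 (log2 change 0.57 ± 0.11, adjusted p = 0.00865). The marker lists were chosen with earlier results of these data known, so such counts are descriptions and not independent evidence. Epithelial markers summed to 6606 to 8223 CPM in Smad7-/- libraries and 7831 to 8693 CPM in wild type, with 7 of 8 lower in Smad7-/-. Endothelial markers summed to 351 to 396 CPM in Smad7-/- libraries and 250.3 to 381 CPM in wild type, with 8 of 8 higher. Only 1 of the 8 had separated ranges, 0 had an unadjusted edgeR p under 0.05, and Kdr differed by 0.06 ± 0.15 in log2. Smooth muscle and pericyte markers summed to 393 to 547 CPM in Smad7-/- libraries and 319 to 416 CPM in wild type, with 6 of 6 higher. Only 1 of the 6 had separated ranges, 2 had an unadjusted edgeR p under 0.05, and Cspg4 differed by 0.01 ± 0.10 in log2. The part of these cell types in the laminin and integrin values was not tested. Skeletal muscle markers summed to 4.68 to 6.19 CPM in Smad7-/- libraries and 6.11 to 7.69 CPM in wild type, with Myod1, Myog and Myf5 at 0 in at least 1 library. Schwann and glial markers summed to 105 to 115 CPM in Smad7-/- and 97.9 to 121 CPM in wild type, cartilage markers to 135 to 149 CPM in Smad7-/- and 128 to 146 CPM in wild type, and the 4 measured red blood cell markers to 16.8 to 28.7 CPM in Smad7-/- and 35.3 to 50.5 CPM in wild type.

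Genes of proteins that work beside laminins and integrins also held no gene past the edgeR threshold. These lists, too, were chosen with earlier results of these data known, so their shares of separated ranges are descriptions. Of 20 other basement membrane genes, 9 were higher and 11 lower in Smad7-/-, none passed the edgeR test, and 4 (20%) had ranges that did not overlap, against 8.88% of all tested genes. Nid1, the nidogen that links laminin to collagen IV, had 416, 414 and 509 CPM in Smad7-/- libraries, against 347, 245 and 319 CPM in wild type. Its log2 change of 0.56 ± 0.14 had an adjusted p of 0.608 by edgeR and 0.0484 by DESeq2. All Smad7-/- libraries of Nid1 lay above all wild-type libraries. The collagen IV chains Col4a6 (0.81 ± 0.31) and Col4a5 (0.36 ± 0.14) were higher in log2 and Col4a3 (-0.85 ± 0.39) was lower, the last at under 1 CPM in every library. The most abundant, Sparc (log2 change 0.17 ± 0.17) and the laminin alpha5 receptor Bcam (-0.14 ± 0.11), overlapped between genotypes.

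Among 4 hemidesmosome genes, 1 was higher and 3 lower, with no separated ranges, and the highest, Col17a1 and Dst, differed by -0.02 ± 0.14 and -0.13 ± 0.21 in log2. Of 18 cytoplasmic adhesion genes, 12 were higher and 6 lower, none passed the edgeR test and 2 (11.1%) had separated ranges, near the 8.88% of all tested genes. Parva, which links integrins to actin, had 343, 328 and 289 CPM in Smad7-/- libraries, against 285, 263 and 276 CPM in wild type (log2 change 0.22 ± 0.09). Lims2, a partner of integrin-linked kinase, differed by 0.71 ± 0.34 at about 1 CPM or less, and Tln1, the talin that activates integrins, by -0.06 ± 0.14.

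Of 10 tested other ligands, 5 were higher and 5 lower, none passed the edgeR test and 4 had separated ranges, against 8.88% of all tested genes. Fn1, the fibronectin bound by the Itga5 and Itga8 dimers, had 544, 559 and 772 CPM in Smad7-/- libraries, against 512, 449.8 and 504 CPM in wild type (log2 change 0.36 ± 0.14). Vcam1, a ligand of the Itga4 and Itga9 dimers, differed by 0.49 ± 0.16 and Edil3, an RGD ligand, by 0.45 ± 0.14. Mfge8, an RGD ligand of alphaV integrins and the most abundant of the list, was lower in all Smad7-/- libraries (log2 change -0.17 ± 0.10). Npnt, the nephronectin bound by the Itga8 dimer, differed by -0.06 ± 0.13.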

How the data were processed

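RNA-seq of 6 mouse tooth germ libraries was analysed from the counts per gene that the authors deposited, unnormalized whole numbers. Reads were aligned with HISAT2, per the file headers, and counted with featureCounts on mm10, with DESeq2 also named, per the submitters' processing notes; versions, annotation and strand setting are not given in the sources used here. Members were found by symbol, and 1 item is not reported here. Members, partner and marker lists were chosen with earlier results of these data known. edgeR 4.0.16 in R 4.3.3 (TMM, filterByExpr with a minimum count of 10, robust quasi-likelihood test, Benjamini-Hochberg over 15284 genes, threshold 0.05) was the main test, and DESeq2 1.42.0 an alternative. Other alternatives were another scaling, no filter, a replicate block, the first component and leaving out each library. Values per library are given for members with an unadjusted p under 0.05 or separated ranges, the 2 highest per kilobase of each role, and Lama3, added after its values were seen. Partner genes named are those with separated ranges and the 2 highest. Exon lengths came from GENCODE M21, with a value for 35 of 35 members. The biological coefficient of variation was 15.9% and the median SE of a log2 change 0.14. Intervals cover the spread between libraries, and reads carry no molecular identifiers. Figures used matplotlib 3.10.9.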

Additional observations from a re-analysis of the deposited data

How the results depend on the processing

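The edgeR test called 4 genes in all, 1 to 7 when each library was left out in turn, and DESeq2 called 59. No member was called under the other scaling, without the filter, under the replicate block, with the first component as a covariate or without any 1 library, and DESeq2 called 1 member, Lamc3 (adjusted p = 0.0484). Adjusted p-values over the alternatives lay between 0.0484 and 1 for Lamc3, 0.0724 and 1 for Itga9, 0.215 and 1 for Itgb6 and 0.276 and 1 for Itga8. The log2 change turned to -0.03 for Lamc1 with the first component as a covariate and to -0.02 for Itgal under the replicate block. Without 1 library, 24 members kept their sign and 10 did not: Lamc1 ran from -0.07 to 0.11, Itgae from -0.45 to 0.07, Itgb8 from -0.31 to 0.35, Itga1 from -0.30 to 0.08, Itgb7 from -0.16 to 0.04, Itga6 from -0.22 to 0.02, Itgav from -0.10 to 0.03, Lama5 from -0.19 to 0.04, Itga10 from -0.20 to 0.48 and Itgal from -0.20 to 0.19. The cause was not tested. Same-numbered libraries deviated together with correlations of 0.169, -0.034 and 0.093, so the numbers were not taken as a pairing. With the replicate block 4 genes and 0 members were called, and not every library correlated best with its own number. Without division by length the shares themselves change, and the differences in share between genotypes moved by less than 1 SD between libraries. With 3 libraries a group, a change the size of the median SE cannot be told from 0.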
